A study of Mus musculus with 8 samples.

Results

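The miR-29 family of mouse comprises 3 microRNAs (miRNAs) from the 3p arms of their precursors, mmu-miR-29a-3p, mmu-miR-29b-3p and mmu-miR-29c-3p, and 4 partner strands from the 5p arms, mmu-miR-29a-5p, mmu-miR-29b-1-5p, mmu-miR-29b-2-5p and mmu-miR-29c-5p, named without the mouse prefix from here on. These 7 members were taken by name from the 1978 mature miRNAs of the count tables by a match of the whole name, without a threshold on any value. Small RNA was sequenced from 8 mouse cell samples with 1 library per condition, to ask how miRNAs respond to PERK, a sensor of stress in the endoplasmic reticulum, and to ATF4, a transcription factor downstream of it. In 4 libraries C2C12 cells, a line of skeletal myoblasts, carried a stably integrated lentiviral hairpin against Perk (shPerk) or a negative control hairpin (shNC) under puromycin selection. They were taken at day 0 and at day 3 of differentiation, which is set off in confluent cells by medium with horse serum. In a further pair, C2C12 cells received an empty vector or a vector that expresses the ATF4 coding sequence from the EF1α promoter, in growth medium. In the last pair, P19 cells, a line of embryonal carcinoma cells, carried shNC or shPerk, and the labels give neither a day nor a state of induction for them. All lines are cultured lines, and how many hairpins against Perk or clones stand behind a library is not given in the sources used here.

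The 4 C2C12 hairpin libraries held 8800977 to 11993448 reads counted on miRNAs, and the ATF4 and P19 pairs were deposited as reads-per-million (RPM) values for 605 and 696 miRNAs, of which 6 of the 7 members were matched in the P19 table. Counts were also expressed as counts-per-million (CPM) of the reads of their library. The labelled lines were set against their markers. The 4 muscle miRNAs miR-1a-3p, miR-133a-3p, miR-133b-3p and miR-206-3p were all above 1 CPM or RPM in each of the 6 C2C12 libraries, where their summed level lay between 2467 and 88479.9, against 34.5 and 96.9 RPM in P19 cells, where 3 of the 4 were matched. The 9 miR-302 and miR-290 cluster miRNAs that mark embryonal carcinoma cells reached 181662 and 414258 RPM in P19 cells, and at most 0.442 CPM in the C2C12 hairpin libraries. Perk and Atf4 mRNA are not measured by small RNA libraries, so neither the knockdown nor the overexpression was checked here.

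A precursor hairpin gives rise to a short duplex, and usually just 1 of its strands stays in an Argonaute protein and guides it to target mRNAs through the seed, the bases near the 5′ end. In the miR-29 family this guide strand is the 3p strand. Its well known targets are mRNAs of collagens and of other proteins of the extracellular matrix, and the DNA methyltransferases Dnmt3a and Dnmt3b. In muscle the family is known as an antifibrotic miRNA and as a promoter of myogenic differentiation, held down in myoblasts by NF-κB with YY1, and it is lowered by MYC and by TGF-beta in several cell types.

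The mature sequences are shown because the family is defined by them. They are RefSeq sequences on build GRCm38.p6, written 5′ to 3′, with the seed (bases 2 to 8) in capitals.
miR-29a-3p: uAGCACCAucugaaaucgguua
miR-29b-3p: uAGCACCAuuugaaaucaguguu
miR-29c-3p: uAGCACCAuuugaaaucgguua
miR-29a-5p: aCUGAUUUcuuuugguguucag
miR-29b-1-5p: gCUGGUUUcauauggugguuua
miR-29b-2-5p: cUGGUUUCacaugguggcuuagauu
miR-29c-5p: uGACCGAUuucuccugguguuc
The 3 guide strands share their seed, and no other of the 1679 mature mouse miRNAs in the table had it. The 4 partner strands have 4 different seeds, of which only that of miR-29b-2-5p occurred in another miRNA, miR-6338. With positions counted from 1 at the 5′ end and the base of the first-named miRNA first, miR-29a-3p and miR-29c-3p differ by C10U alone. miR-29c-3p and miR-29b-3p differ by G18A, U21G and A22U over their first 22 bases, and miR-29b-3p is 1 base longer. The hexamer AGUGUU at the 3′ end of miR-29b-3p, known as an element that directs this miRNA to the nucleus, was found in 12 of the 1679 sequences (0.715%) and in no other member.

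The family is encoded by 4 genes in pairs. Mir29a (chr6:31062660-31062747) and Mir29b-1 (chr6:31063023-31063093) lie on the minus strand of chromosome 6 with 275 bases between them, and the latter falls within an exon of the long noncoding RNA gene Gm27019. Mir29b-2 (chr1:195037040-195037120) and Mir29c (chr1:195037547-195037634) lie on the plus strand of chromosome 1, 426 bases apart, in exons of the noncoding transcript A330023F24Rik and opposite to exons of Cd46, a membrane regulator of complement. The coordinates are those of GRCm38. Mir29b-1 and Mir29b-2 yield the same miR-29b-3p (chr6:31063025-31063047 and chr1:195037091-195037113), so its reads cannot be assigned to a gene. Their 5p strands differ, so miR-29b-1-5p and miR-29b-2-5p are the members that tell these genes apart.

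The guide strands were led by miR-29a-3p in every library, in the order miR-29a-3p, miR-29b-3p, miR-29c-3p. miR-29a-3p had 61509 reads in shNC and 66486 in shPerk C2C12 cells at day 0, and 73804 in shNC and 48475 in shPerk cells at day 3, which are 5433, 7554, 6154 and 5141 CPM. It stood at 9857 RPM with the empty vector and 11181 RPM with ATF4, and at 533 and 725 RPM in shNC and shPerk P19 cells. Among all miRNAs of a library it ranked between 20 and 34 in C2C12 cells, and 160 and 109 in P19 cells. The C2C12 libraries were thus all above the P19 libraries, the lowest of them 7.09 times the highest P19 value, although the tables were normalised separately.

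miR-29b-3p had 2751 and 2257 reads in shNC and shPerk cells at day 0 and 2809 and 1996 reads at day 3, which are 243, 256, 234 and 212 CPM. Its level was 323 RPM with the empty vector, 514 RPM with ATF4, and 22.2 and 34.1 RPM in shNC and shPerk P19 cells. miR-29c-3p was much lower, with 125 and 141 reads at day 0 and 149 and 113 reads at day 3, which are 11.0, 16.0 and 12.4 CPM in the first 3 of these libraries and 9.88 to 14.4 CPM as the 95% interval in the last, shPerk cells at day 3. It had 12.8 and 16.6 RPM in the ATF4 pair and 6.06 and 5.16 RPM in P19 cells. The lowest C2C12 level was 6.21 times the highest P19 level for miR-29b-3p but 1.82 times for miR-29c-3p, so among the guide strands the lines were nearest to each other in miR-29c-3p. Levels of different miRNAs also carry the ligation and amplification bias of each sequence, which was not measured here.

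Among the 3 guide strands, miR-29a-3p made up 94.9% to 96.7% of their sum in all 8 libraries and miR-29b-3p 3.16% to 4.46%. At day 0 the share of miR-29b-3p was 4.27% (95% Clopper-Pearson interval 4.12 to 4.43%) in shNC and 3.28% (3.14 to 3.41%) in shPerk cells, intervals that do not overlap. At day 3 it was 3.66% (3.53 to 3.79%) in shNC and 3.95% (3.78 to 4.12%) in shPerk cells, the opposite order. The shNC intervals of day 0 and day 3 do not overlap either. miR-29c-3p accounted for 0.194% (0.162 to 0.231%) of the sum in shNC and 0.205% (0.172 to 0.241%) in shPerk cells at day 0. At day 3 its share was 0.194% (0.164 to 0.228%) in shNC and 0.223% (0.184 to 0.269%) in shPerk cells. The 4 intervals of miR-29c-3p overlap. Its share was 0.13% and 0.142% in the ATF4 pair and 1.08% and 0.675% in shNC and shPerk P19 cells, which are about 48 and 23 reads as judged from the smallest step between RPM values. Intervals here and below cover counting error alone, since reads copied by PCR were not collapsed by molecular identifiers and are not independent. The RPM tables give no exact read numbers, so their values stand without an interval. How reads with more than 1 matching miRNA were counted is not given in the sources used here, and whether reads of miR-29a-3p were counted for miR-29c-3p, 1 base away, was not tested.

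Of the partner strands, miR-29b-1-5p was the most abundant in C2C12 cells, and over the 4 hairpin libraries it varied the most, 3.71-fold from the lowest to the highest. It had 204 reads (18.0 CPM, 95% interval 15.6 to 20.7) in shNC and 291 reads (33.1 CPM, 29.4 to 37.1) in shPerk cells at day 0. At day 3 it had 186 reads (15.5 CPM, 13.4 to 17.9) in shNC and 84 reads (8.91 CPM, 7.11 to 11.0) in shPerk cells. The shPerk libraries were thus the highest and the lowest of the 4, while the shNC libraries had overlapping intervals. It stood at 44.2 and 38.2 RPM in the ATF4 pair and at 4.04 and 2.47 RPM in P19 cells. In 5 of the 6 C2C12 libraries it was above the guide strand miR-29c-3p, but in the shNC and shPerk libraries of day 3 the intervals of these strands overlapped.

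The other partner strands were scarce. miR-29a-5p had 25 and 12 reads in shNC and shPerk cells at day 0 and 24 and 14 reads at day 3, and 1.98 and 4.52 RPM in the ATF4 pair, about 21 and 55 reads. miR-29b-2-5p had 32 and 23 reads at day 0 and 33 and 10 reads at day 3, with 4.25 and 5.26 RPM in the ATF4 pair and 3.79 and 2.24 RPM in P19 cells. miR-29c-5p had 36 and 26 reads at day 0 and 35 and 45 reads at day 3, 2.84 and 2.79 RPM in the ATF4 pair, and 1.52 and 6.28 RPM in P19 cells. In the hairpin libraries these 3 strands lay between 1.06 and 4.77 CPM. The intervals of their levels overlapped within each library at day 0 and in shNC cells at day 3. Overlap alone does not show that the levels were equal. All 4 partner strands together made up 0.302% to 0.520% of the reads of the family in C2C12 cells.

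**Figure D1:**
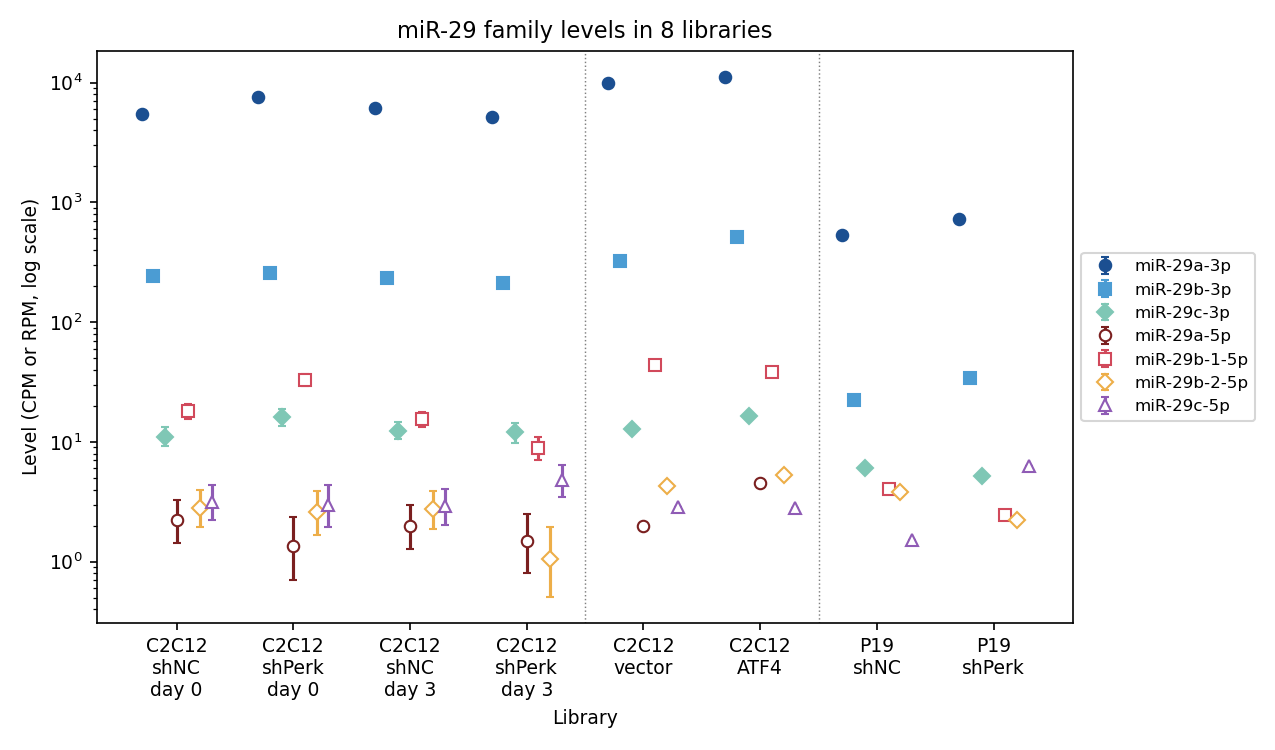
Levels of the 7 miR-29 family members in the 8 libraries, on a log axis in CPM for the C2C12 hairpin libraries and RPM for the ATF4 and P19 pairs (dotted lines separate tables normalised separately). Filled symbols are 3p members and open symbols 5p members, and bars are 95% exact Poisson intervals of the counts. miR-29a-3p lies between 5141 and 11181 in C2C12 cells and at 533 and 725 in P19 cells, and miR-29b-1-5p is highest of the hairpin libraries in shPerk cells at day 0 and lowest in shPerk cells at day 3.

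To compare conditions, log2 fold changes were computed with TMM library factors over all miRNAs that reached 1 CPM or RPM in either library of a pair. With 1 library per condition there is no test between conditions, and a log2 fold change beyond 1 in either direction, a 2-fold change, counted as a call. The knockdown and the differentiation comparisons of C2C12 cells share their 4 libraries, so they are not independent of each other. In bulk samples, a smaller number of cells that express a miRNA and less of it per cell cannot be told apart.

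At day 0, shPerk against shNC C2C12 cells gave positive values for the 3 guide strands, all within 2-fold. The log2 fold change was 0.61 (95% interval 0.59 to 0.62) for miR-29a-3p, 0.21 (0.13 to 0.29) for miR-29b-3p and 0.67 (0.31 to 1.03) for miR-29c-3p, and it was 0.59 (0.58 to 0.61) for their sum. miR-29b-1-5p was called higher at 1.01 (0.75 to 1.27), just past the limit, and the value fell to 0.88 with total count scaling. It was the only member called of 7, with 0 called lower, where 15.6% of the 602 miRNAs compared were called higher and 20.3% lower, so the number of members called was not above the background. miR-29b-2-5p and miR-29c-5p had values of 0.02 and 0.03 with total count scaling turning both negative, and miR-29a-5p had -0.56 with an interval from -1.69 to 0.48. The summed level of the 4 muscle miRNAs was 19165 CPM in shNC and 3839 CPM in shPerk cells, and its part in these differences was not tested.

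At day 3, the guide strands of shPerk and shNC cells were nearly level, with log2 fold changes of 0.07 (0.06 to 0.09) for miR-29a-3p, 0.19 (0.10 to 0.27) for miR-29b-3p and 0.28 (-0.08 to 0.64) for miR-29c-3p. With total count scaling these became -0.26, -0.15 and -0.05, so their direction at day 3 depended on the scaling. The partner strands diverged. miR-29c-5p was called higher at 1.04 (0.37 to 1.72) and miR-29b-2-5p, which comes from the neighbouring gene, lower at -1.04 (-2.23 to 0.01), an interval that includes 0, and a larger prior count put it inside the limit at -0.94. miR-29b-1-5p was at -0.47 (-0.86 to -0.09). Of the 575 miRNAs compared, 21.9% were called higher and 23.0% lower, so 1 member in each direction is no more than the background. Of these miRNAs 126 were higher and 132 lower with TMM factors, against 93 higher and 166 lower with total count scaling, which moved the median of all miRNAs from 0.01 to -0.32 and put miR-29c-5p inside the limit at 0.71. The muscle miRNAs stood at 88479.9 CPM in shNC and 24312 CPM in shPerk cells.

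When shNC cells differentiated for 3 days, no member was called, while 12.5% of 593 miRNAs were called higher and 16.5% lower. miR-29a-3p had a log2 fold change of 0.45 (0.43 to 0.46), miR-29c-3p 0.44 (0.08 to 0.79) and miR-29b-3p 0.21 (0.14 to 0.29). With total count scaling miR-29a-3p and miR-29c-3p stayed positive at 0.18 and 0.17, and miR-29b-3p turned to -0.05. The 4 partner strands had values between 0.05 and 0.23, and each of them turned negative with total count scaling. That scaling gave 51 miRNAs higher and 140 lower in place of 74 and 98, with a median of -0.30 in place of -0.04.

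In shPerk cells over the same days, miR-29b-1-5p was called lower and miR-29c-5p higher, and the guide strands stayed within 2-fold. miR-29b-1-5p was lower in the day 3 library, 84 reads against 291, at a log2 fold change of -1.53 (-1.90 to -1.18), and it stayed below -1 under every scaling, filter and prior tried. miR-29c-5p had 45 reads against 26, a value of 1.05 (0.32 to 1.81), and 0.69 with total count scaling. miR-29b-2-5p had -0.93 (-2.18 to 0.18), and it passed the limit at -1.29 with total count and -1.05 with upper quartile scaling. miR-29a-3p was at -0.20 (-0.21 to -0.18), miR-29c-3p at -0.06 (-0.43 to 0.31), and miR-29b-3p at 0.08 (-0.01 to 0.17). With total count scaling these became -0.56, -0.42 and -0.28. The background was 16.9% called in each direction of 573 miRNAs, so 1 higher and 1 lower among 7 members is no more than it. Total count scaling gave 58 higher and 161 lower in place of 97 and 97, with a median of -0.40 in place of -0.05.

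The differentiation changes of both lines rest on separate libraries, so their difference could be formed. For miR-29b-1-5p it was -1.58 (95% interval from the 4 counts -2.03 to -1.13), shPerk minus shNC, and 15.2% of the 541 miRNAs compared had a difference below -1. miR-29a-3p had a difference of -0.64 (-0.67 to -0.62) and the summed guide strands -0.62 (-0.65 to -0.60), since their value was positive in shNC and negative in shPerk cells under every scaling. The difference was -0.13 (-0.25 to -0.02) for miR-29b-3p and -0.50 (-0.99 to 0.00) for miR-29c-3p. For miR-29b-2-5p it was -1.16 (-2.44 to 0.12), for miR-29c-5p 0.91 (-0.06 to 1.87) and for miR-29a-5p 0.35 (-1.02 to 1.73), all with 0 inside the interval. These intervals do not cover the spread between cultures, which 1 library per condition cannot show.

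With ATF4 overexpression, miR-29b-3p had the largest value of the guide strands, 323 RPM with the empty vector and 514 RPM with ATF4, a log2 fold change of 0.73 that stayed positive under every scaling. miR-29a-3p was at 0.25 and the sum of the guide strands at 0.26, and with upper quartile scaling these turned to -0.13 and -0.11. miR-29c-3p was at 0.44. The only member called was miR-29a-5p, 1.98 RPM against 4.52 RPM or 1.25, and upper quartile scaling put it inside the limit at 0.88. Of the 605 miRNAs compared, 14.5% were called higher and 8.93% lower, close to 1 in 7 members. miR-29b-1-5p had -0.15, miR-29b-2-5p 0.37 and miR-29c-5p 0.04, of which the last 2 turned negative with upper quartile scaling. That scaling gave 53 miRNAs higher and 124 lower in place of 88 and 54, with a median of -0.38 in place of 0.00.

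In P19 cells, shPerk against shNC gave the largest single value of the family, that of miR-29c-5p, and the only guide strands past the limit. miR-29a-3p was called higher at a log2 fold change of 1.05, miR-29b-3p at 1.22 and miR-29c-5p at 2.65, and the sum of the guide strands was at 1.05. miR-29c-3p had 0.37, which turned to -0.23 with total count scaling, and miR-29b-1-5p and miR-29b-2-5p had -0.10 and -0.15. The 3 members called higher of 6 compared stand beside a background of 17.7% called higher and 17.7% lower among 696 miRNAs. The call of the guide strands depended on the scaling. With total count scaling miR-29a-3p was at 0.44 and miR-29b-3p at 0.62, both within 2-fold, while miR-29c-5p remained called at 2.05. That scaling gave 46 miRNAs higher and 247 lower in place of 123 and 123 and moved the median of all miRNAs from -0.04 to -0.65. The 9 embryonal carcinoma miRNAs took 181662 RPM of the shNC and 414258 RPM of the shPerk library, 6 of them called higher and 1 lower, and their part in the values of the family was not tested. miR-29c-5p rests on about 12 and 28 reads, as judged from the RPM step.

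**Figure D2:**
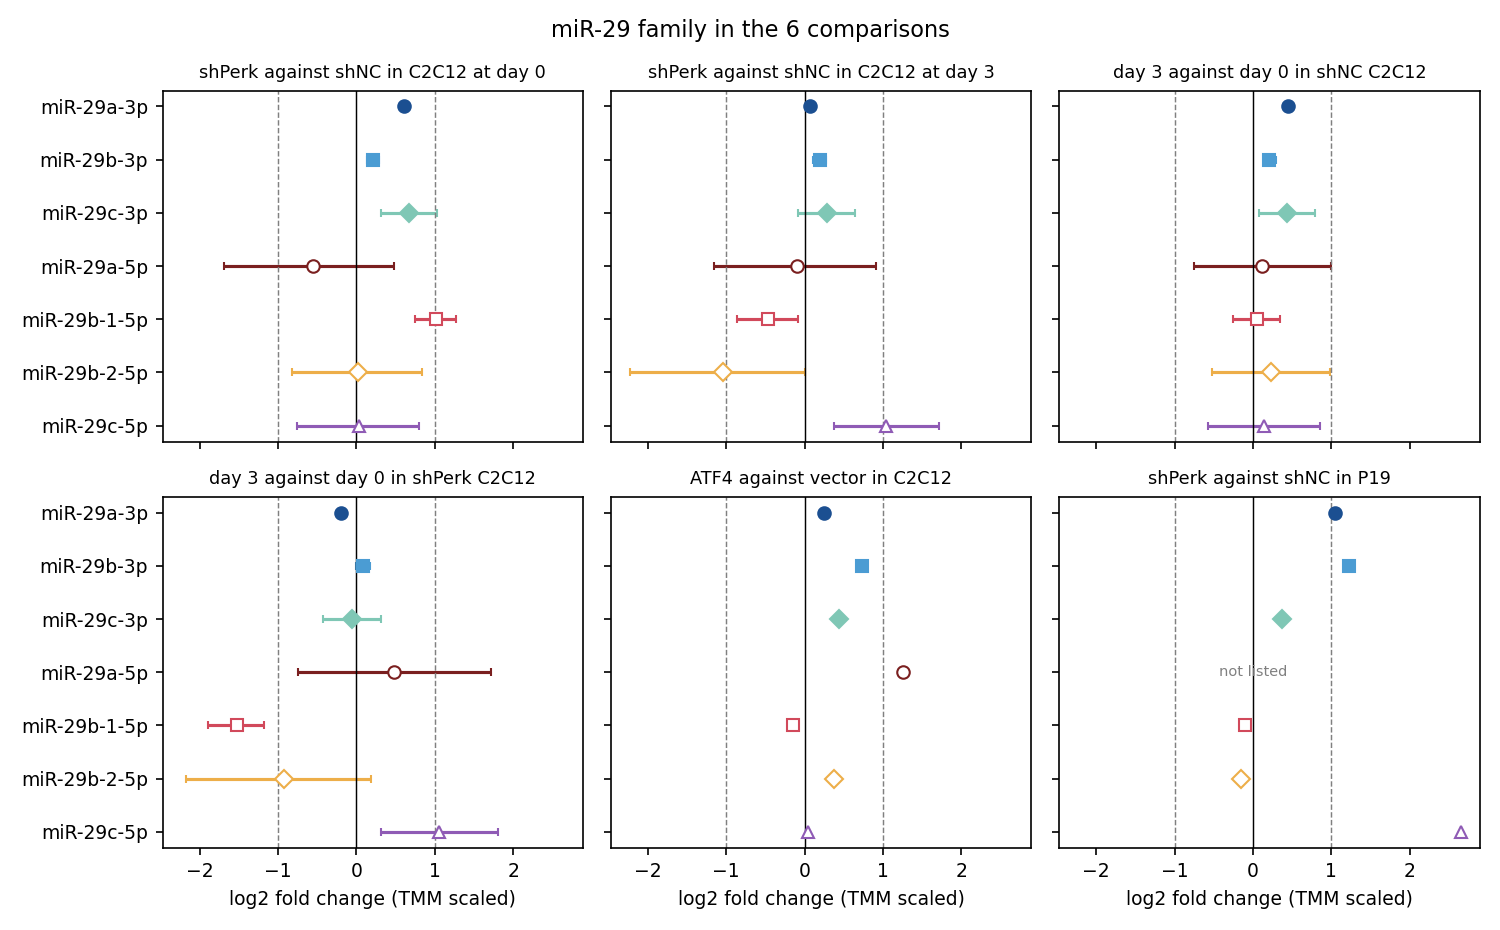
Log2 fold change (x axis, TMM scaled) of each member in the 6 comparisons, with dashed lines at the 2-fold limit. Bars are 95% intervals from the counts and cover counting error only, and the ATF4 and P19 panels come from RPM values and have none. Guide strands (filled) stay inside the limit in all 5 C2C12 panels and pass it for miR-29a-3p and miR-29b-3p in P19 cells, and miR-29b-1-5p lies at 1.01 in shPerk against shNC at day 0 and at -1.53 in the differentiation of shPerk cells.

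The partner strand was set against the guide strand of the same precursor within each library, a ratio that needs no scaling between libraries. In miR-29a the 5p strand was between 0.0180% (12 of 66498 reads, 95% interval 0.00932 to 0.0315%) and 0.0406% (25 of 61534 reads, 0.0263 to 0.0600%) of both strands in the 6 C2C12 libraries. Precursors with both strands listed were taken where the more abundant strand had at least 10 CPM or RPM, whatever the level of the other. Over these, the minor strand took a median of 2.53% to 7.54% in these libraries. The strands of miR-29a were thus among the most uneven, ranking 3 to 23 from the lowest of 140 to 181 precursors. The miR-29a ratio of 5p to 3p changed by a log2 value of -1.17 (-2.30 to -0.12) in shPerk against shNC cells at day 0, on 25 and 12 reads, where 13.9% of 165 precursors changed by more than 1 in either direction. With ATF4 it changed by 1.01, where 7.19% of 153 precursors changed as much. For knockdown at day 3 the change was -0.17 (-1.24 to 0.84). Over differentiation the change was -0.32 (-1.19 to 0.55) in shNC and 0.68 (-0.54 to 1.92) in shPerk cells. These intervals, for knockdown at day 3 and for differentiation, include 0.

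In miR-29b the 5p share moved with the condition. It was 7.90% (6.96 to 8.93%) in shNC and 12.2% (11.0 to 13.5%) in shPerk cells at day 0, and 7.23% (6.34 to 8.21%) in shNC and 4.50% (3.65 to 5.48%) in shPerk cells at day 3. The shNC intervals overlap, whereas each shPerk library stands apart from them, above at day 0 and below at day 3. The change of the ratio over differentiation was -1.56 (-1.92 to -1.21) in shPerk cells and -0.14 (-0.42 to 0.14) in shNC cells, and it was 0.70 (0.44 to 0.96) for knockdown at day 0 and -0.73 (-1.10 to -0.36) at day 3. The share was 13.1% with the empty vector and 7.80% with ATF4, a change of -0.83. It was 26.0% and 12.1% in shNC and shPerk P19 cells, a change of -1.35, on about 62 of 238 and 21 of 173 reads. In P19 cells 27.5% of 207 precursors changed by more than 1 in either direction. miR-29b-3p itself changed by 0.08 in the differentiation of shPerk cells, so most of the change in the ratio lay in the 5p strands.

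Other precursors also moved in the comparisons with the shPerk library of day 3. In 23.9% of precursors the ratio of minor to major strand fell by more than 1 on the log2 scale for knockdown at day 3. It fell as far in 22.1% for differentiation of shPerk cells, against 10.3% for knockdown at day 0 and 7.98% for differentiation of shNC cells. Changes beyond 1 in either direction were seen in 28.2% of 149 precursors in the differentiation of shPerk cells and in 36.8% of 155 for knockdown at day 3, against 12.3% of 163 in the differentiation of shNC cells. The part of this shift in the value of miR-29b was not tested.

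In miR-29c the 5p share was 22.4% (16.2 to 29.6%) in shNC and 15.6% (10.4 to 22.0%) in shPerk cells at day 0. At day 3 it was 35 of 184 reads (13.6 to 25.4%) in shNC and 28.5% (21.6 to 36.2%) in shPerk cells at day 3. It went the other way from miR-29b in shPerk cells, with a change of the ratio of 1.11 (0.28 to 1.96) over differentiation. There 28.2% of 149 precursors changed by more than 1 in either direction, and in shNC cells the miR-29c change was -0.29 (-1.10 to 0.51). For knockdown the ratio changed by -0.64 (-1.51 to 0.21) at day 0 and by 0.76 (-0.01 to 1.54) at day 3, both intervals including 0. The share was 18.2% with the empty vector and 14.4% with ATF4, a change of -0.41. In P19 cells the share was 20.1% in shNC and 54.9% in shPerk, a change of 2.28, where 27.5% of 207 precursors changed by more than 1 in either direction. In shPerk P19 cells the 5p strand of miR-29c was thus above the 3p strand, 6.28 against 5.16 RPM. This rests on about 28 and 23 reads, which counting error does not separate, and in the other 7 libraries the 5p strand of miR-29c was below the 3p strand.

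**Figure D3:**
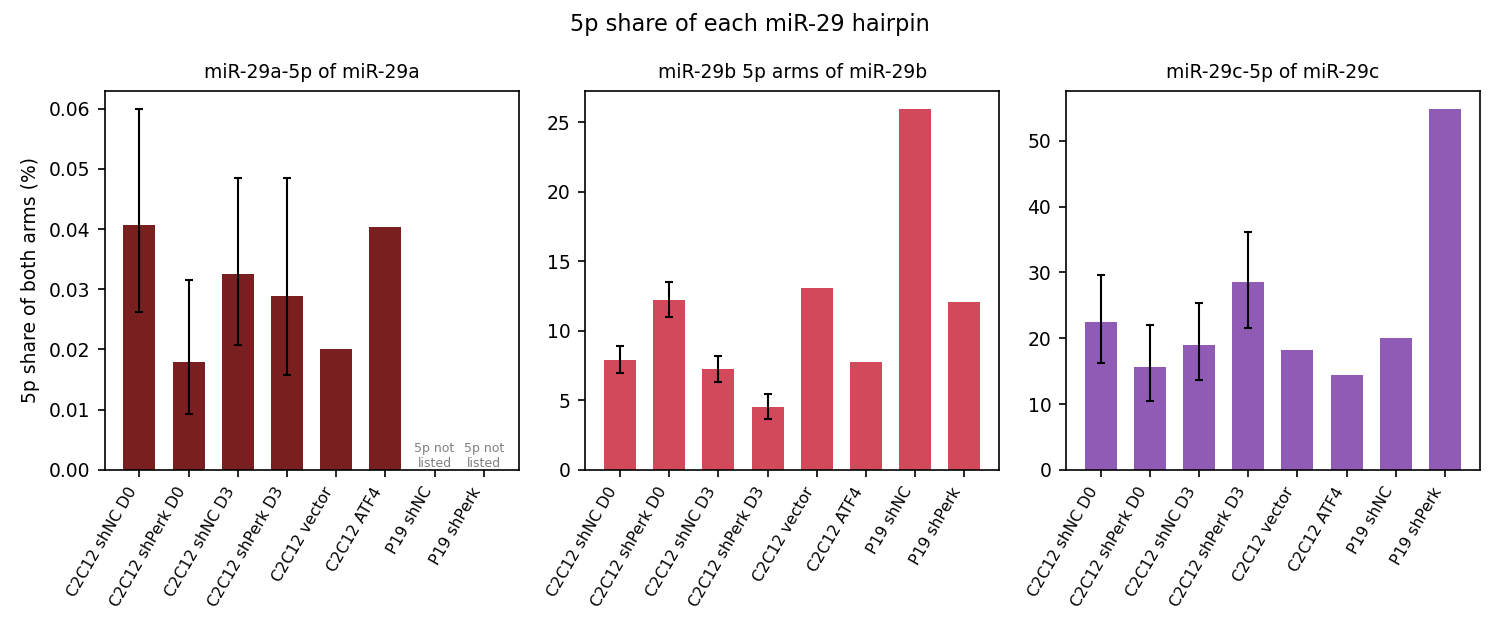
Share of the 5p strand (y axis, % of 5p and 3p reads or RPM, axes starting at 0 and scaled by panel) for miR-29a, miR-29b with both 5p strands summed, and miR-29c in each library, with 95% Clopper-Pearson intervals for the count tables. The miR-29b share is 12.2% in shPerk C2C12 cells at day 0 and 4.50% at day 3, and the miR-29c share reaches 54.9% in shPerk P19 cells.

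The 5p strands were also set against each other by gene, and whether they follow the output of their genes was not tested. miR-29b-2-5p, from chromosome 1, made up 13.6% (9.46 to 18.6%) and 7.32% (4.70 to 10.8%) of the miR-29b 5p reads in shNC and shPerk cells at day 0, and 15.1% (10.6 to 20.5%) and 10.6% (5.22 to 18.7%) at day 3. Its share was 8.77% and 12.1% in the ATF4 pair but 48.4% and 47.6% in P19 cells, so miR-29b-1-5p and miR-29b-2-5p were nearly equal there. This share covers the miR-29b genes alone and leaves out miR-29a-5p and miR-29c-5p. miR-29c-3p, also from chromosome 1, took a larger share of the guide strands in P19 than in C2C12 cells as well, as given above. The numbers behind the P19 shares are small, about 30 of 62 and 10 of 21 reads, and the stability of the strands, which can differ, was not measured.

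Within the chromosome 1 pair, miR-29c-5p and miR-29b-2-5p did not keep a constant ratio. miR-29c-5p was 52.9% (40.4 to 65.2%) and 53.1% (38.3 to 67.5%) of their sum in shNC and shPerk cells at day 0 and 51.5% (39.0 to 63.8%) in shNC cells at day 3, against 81.8% (69.1 to 90.9%) in shPerk cells at day 3. The ratio of miR-29b-2-5p to miR-29c-5p changed by -2.07 (-3.45 to -0.79) for knockdown at day 3 and by -0.01 (-1.16 to 1.15) at day 0. In P19 cells the share of miR-29c-5p was 28.6% in shNC and 73.7% in shPerk, a change of the ratio by -2.81. The ratio was thus lower in shPerk than in shNC cells in C2C12 cells at day 3 and in P19 cells. This rests on 10 to 45 reads per strand in these C2C12 libraries and on about 10 to 30 in P19 cells, without an interval there. How often other pairs of neighbouring miRNAs moved as much was not tested.

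**Figure D4:**
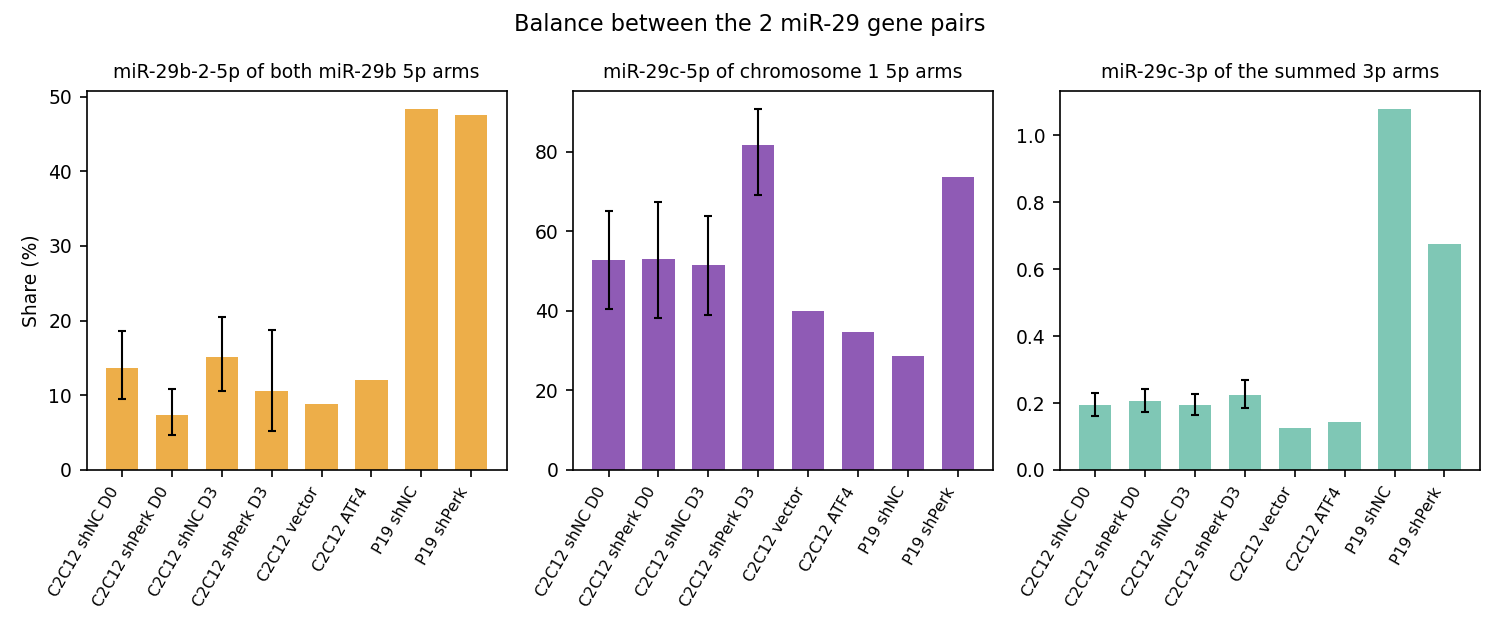
Shares (y axis, %, axes starting at 0 and scaled by panel) of miR-29b-2-5p among both miR-29b 5p strands, of miR-29c-5p among the 5p strands from chromosome 1, and of miR-29c-3p among the 3 guide strands, by library, with 95% Clopper-Pearson intervals for the count tables. miR-29b-2-5p is at 48.4% and 47.6% in P19 cells and at most 15.1% in C2C12 cells, and miR-29c-5p reaches 81.8% in shPerk C2C12 cells at day 3.

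The guide strands were then set beside miRNAs of the settings in which the family is known. Of 15 miRNAs linked to muscle differentiation, 10 were called higher in the differentiation of shNC cells and 0 lower, beside 12.5% and 16.5% of all miRNAs. The median log2 fold change was 1.45 against -0.04 for all miRNAs, led by miR-1a-3p at 6.56 and miR-499-5p at 3.72. In shPerk cells 6 of the 14 compared were called higher, beside 16.9% of all miRNAs, with a median of 0.95. The value of miR-29a-3p was 0.45 in shNC and -0.20 in shPerk cells, below the median of the list in both. For knockdown, 5 of 14 were called lower and 1 higher at day 0, where 20.3% of all miRNAs were lower and 15.6% higher. At day 3, 8 of 15 were lower and 3 higher, where 23.0% of all were lower and 21.9% higher. The list had medians of -0.57 and -1.35 at day 0 and day 3, led by miR-133b-3p and miR-133a-3p at -3.32 and -3.04 at day 0 and at -3.69 and -3.76 at day 3. The guide strands had values from 0.07 to 0.67 in these knockdown comparisons, which turned negative at day 3 with total count scaling. With ATF4, 3 of the 14 compared were called higher and 1 lower, with miR-1a-3p at 5.40, and in P19 cells 4 of 13 were called higher and 0 lower, with medians of 0.54 and 0.63. Of all miRNAs 14.5% were higher and 8.93% lower with ATF4 and 17.7% each way in P19 cells, so these counts were not far from the background.

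Of 20 miRNAs known to be repressed by MYC, as the miR-29 family is, the medians in the 6 comparisons lay between 0.06 and 0.45, each above the median of all miRNAs. Of the 19 compared, 3 were called higher and 0 lower for knockdown at day 0, 4 higher and 2 lower at day 3, 3 higher and 0 lower in the differentiation of shNC cells and 2 higher and 0 lower in that of shPerk cells. Of 20 compared, 2 were called higher with ATF4 and 1 in P19 cells, with 0 lower. The shares of all miRNAs called higher were 15.6% and 21.9% for knockdown at day 0 and day 3, 12.5% and 16.9% in the differentiation of shNC and shPerk cells, 14.5% with ATF4 and 17.7% in P19 cells, so the counts called higher were near or below the background. Of all miRNAs 20.3% and 23.0% were called lower for knockdown at day 0 and day 3. The shares called lower were 16.5% and 16.9% in the differentiation of shNC and shPerk cells, 8.93% with ATF4 and 17.7% in P19 cells. The list counts called lower were thus below the background. The largest values for knockdown were those of miR-195a-5p (2.97 and 2.63 at day 0 and day 3) and miR-146a-5p (2.67 and 3.46). The 6 miRNAs known to be induced by TGF-beta, which lowers the miR-29 family, had 0 called for knockdown at either day and with ATF4. The shares of all miRNAs called in these comparisons are those given above. Of these, 1 was called higher in each differentiation, miR-145a-5p at 1.11 in shNC and miR-143-3p at 1.35 in shPerk cells, where 12.5% and 16.9% of all miRNAs were called higher, so 1 of 6 was near the background. In P19 cells 2 were called higher, miR-143-3p at 2.67 and miR-199a-5p at 1.36, beside 17.7% of all miRNAs. The medians of this list lay between -0.15 and 0.71.

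The miRNAs whose levels were most like those of the guide strands were found by the root mean square difference of log2 levels, centred within each set of tables, over the 8 libraries and 355 miRNAs. For miR-29a-3p these were let-7b-5p (0.11), miR-221-5p (0.13) and miR-199a-5p (0.14), where the median over all miRNAs was 0.58. The nearest to miR-29b-3p were miR-199a-5p (0.13), miR-126a-3p (0.14) and miR-199a-3p (0.16), and the nearest to miR-29c-3p were miR-196a-5p (0.08), miR-140-3p (0.12) and miR-140-5p (0.12). Within the family, miR-29a-3p differed from miR-29b-3p by 0.17 and from miR-29c-3p by 0.19 on this measure, and from miR-29b-1-5p by 0.46. miR-29b-3p and miR-29c-3p differed by 0.25. The guide strands were thus closer to each other than any of them was to miR-29b-1-5p. Placed among the 355 miRNAs, they ranked between 5 and 30 in nearness to each other, so some miRNAs outside the family were nearer. The likeness is a description of these 8 libraries, which differ in depth.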

How the data were processed

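Small RNA libraries of 8 samples, 1 per condition, were analysed. The authors had linkers ligated to both RNA ends, the product reverse-transcribed, amplified and size-selected on a gel, and reads aligned with bowtie. Its version, the miRNA release and the rule for reads matching several miRNAs are not given in the sources used here, and the submitters' processing notes name the builds mm10 and GRCm38. Raw counts per mature miRNA were deposited by the authors for the C2C12 hairpin libraries, with no normalization. For the ATF4 and P19 pairs the authors deposited RPM, scaled to the reads counted on miRNAs. The deposited log2 fold changes and the deposited p-values and q-values are the authors' own comparisons and were not used.

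The family members and the lists (muscle differentiation, MYC repressed, TGF-beta induced, and markers of myoblasts and embryonal carcinoma cells) were chosen with earlier results of these data known, and members were then matched by name alone. Named are all members, the 3 miRNAs most like each 3p member, and list members furthest from 0 at a mean of 10 CPM or RPM or more. For each pair, miRNAs with at least 1 CPM or RPM in either library were kept. Log2 fold changes used TMM factors (edgeR 4.0.16, R 4.3.3) and a prior count of 0.125 reads, with RPM values listed at 0 set to 1. A log2 fold change beyond 1 was called. Intervals (95%) were exact Poisson intervals for CPM levels and Clopper-Pearson intervals for shares and fold changes. They were exact conditional odds ratio intervals for strand ratios, and normal on the log scale for differences of fold changes. Changes of strand ratios of other precursors were taken where each strand had a mean of 10 reads or more. The median minor strand share was taken where the more abundant strand had at least 10 CPM or RPM. No test between conditions was possible. The code for fold changes was tested on simulated data with known changes. Alternatives were 3 other scalings, other filters and priors, 0.5 reads added to every strand, and all strands pooled. Scripts ran in Python 3.11.15 with scipy 1.17.1, pandas 2.3.3, numpy 2.4.6 and, for figures, matplotlib 3.10.9. Depth was 8800977 to 11993448 reads in the count tables, and 1 RPM was worth about 4.46 to 12.2 reads in the other tables.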

Additional observations from a re-analysis of the deposited data

Results flagged for a closer look

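miR-29b-1-5p moved in opposite directions under knockdown in C2C12 cells at the 2 time points, with a log2 fold change of 1.01 in shPerk against shNC cells at day 0 and -0.47 at day 3. The change of miR-29a-3p over differentiation was 0.45 in shNC cells and -0.20 in shPerk cells, and that of the summed 3p strands, of which miR-29a-3p is nearly all, was 0.44 and -0.19. With 1 library per condition, whether these differences exceed the spread between cultures was not tested.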

How the results depend on the processing

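Of 41 member values, 15 changed sign with scaling, as given beside them. Among the alternatives for single members, 249 values kept their side of the 2-fold limit, 15 fell inside it and 2 passed it. In P19 cells the summed 3p strands went from 1.05 to 0.44 with total count and 0.91 with upper quartile scaling. Pooling all strands of the family in place of single precursors, where the well counted strands outweigh the others, turned the 5p to 3p change of miR-29a from -1.17 to 0.15 for knockdown at day 0 and from 1.01 to -0.27 with ATF4, and that of miR-29c in the differentiation of shPerk cells from 1.11 to -0.76, and brought that of miR-29b from -1.56 to -0.76. Adding 0.5 RPM brought miR-29a with ATF4 to 0.84. Without a filter, the miRNAs called higher and lower became 220 and 368 for knockdown at day 0 (from 94 and 122), 268 and 359 at day 3 (from 126 and 132), 249 and 307 in the differentiation of shNC cells (from 74 and 98) and 257 and 254 in that of shPerk cells (from 97 and 97). At 10 CPM or RPM they were 47 and 79, 79 and 84, 42 and 48, and 62 and 42, with 52 higher for ATF4 (from 88). The filters change the number of miRNAs compared. Total count scaling gave 58 and 161 in the differentiation of shPerk cells and 46 and 247 in P19 cells (from 123 and 123), and upper quartile scaling gave 53 and 124 with ATF4 (from 88 and 54), and the cause of these shifts was not tested. At 10 CPM or RPM miR-29a-5p, miR-29b-2-5p and miR-29c-5p gave no value in any comparison, nor did miR-29b-1-5p and miR-29c-3p in P19 cells. No paired analysis was possible because each condition has 1 library, and no library could be left out for the same reason. Members under 50 reads limit what the 5p strands can show.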
